A study of Mus musculus with 12 samples.

Results

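The genes described here encode 10 proteins that neutrophils store in granules or hold in the cytosol: Mpo, Elane, Prtn3, Ltf, Camp, Ngp, Lcn2, Mmp9, S100a8 and S100a9. They were chosen by name as proteins of the primary, specific and gelatinase granules and of the cytosol, with earlier results of these data known. Each was read by 1 probe set that the platform annotation maps to that symbol alone, so all 10 were measured among 19938 genes in all. The study compared cultured mast cells labelled as grown from ACKR2-/- (D6-/-) mice on the C57BL/6 background with cells labelled as grown from wild type C57BL/6 mice, each after 10 weeks and after 2 weeks in culture. Each of the 4 groups held 3 arrays, which makes 12 in all. ACKR2 is an atypical chemokine receptor that takes up inflammatory CC chemokines. All cultures are labelled as grown from marrow of female mice aged 4 to 6 weeks, in medium with stem cell factor (12.5 ng/ml) and interleukin 3 (10 ng/ml). The protocol calls the cultures homogeneous mast cells after 4 weeks and says that 2-week cells were purified on CD117 for some experiments, without naming the arrays. The 3 arrays of a group are called biological replicates, and no label ties them to separate animals or cultures, so p-values measure only the spread between these arrays. How the receptor gene was disrupted is not given in the sources used here.

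Neutrophil granule proteins are made in waves as a granulocyte matures in the marrow. The primary granule proteins, myeloperoxidase and the serine proteases, are transcribed at the promyelocyte stage, the specific granule proteins at the myelocyte stage, and the gelatinase granule proteins later, while the calcium-binding pair S100a8 and S100a9 accumulates in the cytosol of maturing neutrophils and of monocytes. Specific granule genes in mouse depend on the transcription factor Cebpe. Mast cells arise from the same marrow progenitors, and interleukin 3, which was in the medium, also supports other myeloid cells. Lcn2 and Mmp9 are also made by macrophages and other cells.

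Before the comparisons, 4 arrays have to be set apart. The 3 arrays labelled ACKR2-deficient at 2 weeks and wild type 2-week array 3 lacked mast cell transcripts. Fcer1a, which encodes the IgE-binding receptor subunit, read 5.25, 5.21 and 5.47 on the ACKR2-deficient 2-week arrays and 4.83 on wild type 2-week array 3, and at least 13.74 on the other 8 arrays. On the same 4 arrays the X-inactivation RNA Xist read at most 6.23, against at least 13 elsewhere, although every mouse is labelled female. The Y-linked genes Kdm5d and Eif2s3y read at least 10.06 and 10.57 there, against at most 6.42 and 4.61 elsewhere. The label of sex thus does not hold for these 4 arrays. Their T and NK cell markers averaged between 8.74 and 12.02, against at most 7.22 elsewhere. Their B cell markers averaged between 10.16 and 12.9, against at most 6.99 elsewhere. Of the 4, ACKR2-deficient 2-week array 3 had the lowest T and NK cell mean (8.74) and the highest B cell mean (12.9). Results that use the 2-week arrays are therefore about arrays carrying those labels, and are given with and without wild type 2-week array 3. ACKR2-deficient 10-week array 1 also stood apart from its group. Across all genes it correlated at 0.974 and 0.975 with the other ACKR2-deficient 10-week arrays. With the wild type 10-week arrays it correlated at 0.979, 0.985 and 0.989, and highest, at 0.991, with wild type 2-week array 2. The wild type 10-week arrays were not closely grouped either, at 0.97, 0.981 and 0.988 with each other. Ackr2 itself read 8.34, 8.16 and 8.25 on the ACKR2-deficient 10-week arrays and 7.88, 8.26 and 8.35 on the wild type 10-week arrays, so its probe set did not separate the genotypes. Whether it lies in the disrupted part is not given in the sources used here.

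At 10 weeks all 10 genes averaged lower on the ACKR2-deficient arrays, 8 of them with differences between -3.11 and -1.26 on the log2 scale (8.65-fold to 2.40-fold lower as measured), while Camp differed by -0.15 and Mmp9 by -0.14. The median difference over the 10 genes was -2.38, against 0.01 over all genes tested. None passed the test: with limma on the 6 arrays of 10 weeks and Benjamini-Hochberg adjustment over all genes, the adjusted p of the 10 genes lay between 0.38 and 0.906. No gene of the 19938 was called in either direction, a background of 0%. At an unadjusted p under 0.05, 8 of the 10 genes stood, against 10.5% of all genes. For 6 of the 10 genes every ACKR2-deficient array lay below every wild type array, as for 5.98% of all genes, while none of the 10 lay above without overlap, as 8.61% of all genes did. The 10 genes were chosen with earlier results of these data known, and many rose and fell on the same arrays. Their shares beside those of all genes are thus no test of the set. These are bulk arrays, in which fewer cells that make a transcript and less transcript per cell cannot be told apart.

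**Figure D1:**
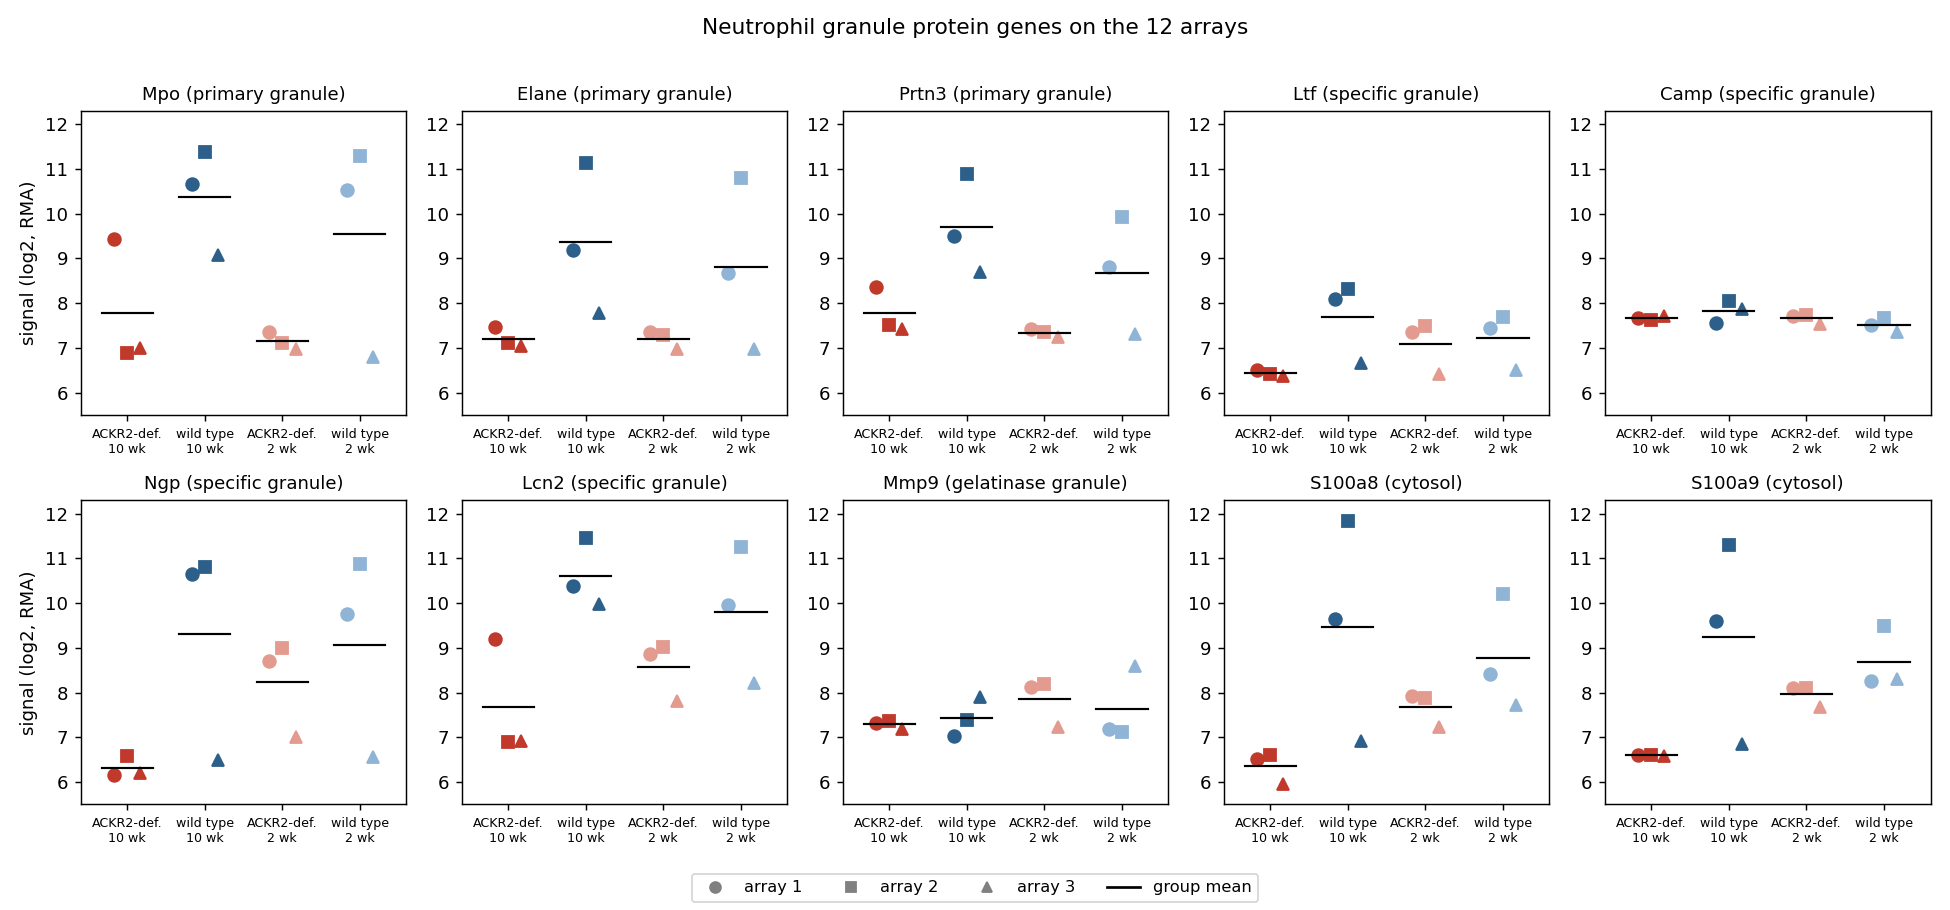
Log2 signal of the 10 genes (1 panel each) on the 12 arrays, by group, with ACKR2-deficient left of wild type at 10 and at 2 weeks. Symbols mark the array number, and bars are group means over 3 arrays. At 10 weeks wild type arrays 1 and 2 stand above the ACKR2-deficient arrays in 8 panels, and wild type array 3 joins the ACKR2-deficient arrays for Ngp but not for Lcn2.

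All 3 primary granule genes were highest on wild type array 2 and next highest on wild type array 1. Mpo encodes myeloperoxidase, which makes hypochlorous acid from hydrogen peroxide. It read 9.44, 6.89 and 6.99 on the ACKR2-deficient 10-week arrays and 10.67, 11.39 and 9.07 on the wild type 10-week arrays, a difference of -2.60 ± 0.80 (limma SE, adjusted p = 0.399). The groups overlapped, because ACKR2-deficient array 1 lay above wild type array 3. Elane, neutrophil elastase, read 7.47, 7.10 and 7.04 on the ACKR2-deficient arrays and 9.18, 11.14 and 7.79 on the wild type arrays, a difference of -2.17 ± 0.73 (adjusted p = 0.404 with limma). Prtn3, proteinase 3, lies next to Elane on chromosome 10. Its values were 8.37, 7.51 and 7.43 on the ACKR2-deficient arrays and 9.51, 10.90 and 8.69 on the wild type arrays, a difference of -1.92 ± 0.53 (adjusted p = 0.388 with limma). For both proteases the groups did not overlap, with ACKR2-deficient array 1 nearest to wild type array 3.

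The specific granule genes split into 3 patterns. Lcn2 encodes lipocalin 2, which withholds iron by binding bacterial siderophores. It read 9.20, 6.89 and 6.91 on the ACKR2-deficient 10-week arrays and 10.38, 11.45 and 9.98 on the wild type 10-week arrays, a difference of -2.93 ± 0.66 (adjusted p = 0.38 with limma). The groups did not overlap, and all 3 wild type arrays were high. Ngp, neutrophilic granule protein, is related in sequence to the cathelicidins. It read 6.16, 6.57 and 6.21 on the ACKR2-deficient arrays and 10.65, 10.80 and 6.49 on the wild type arrays, a difference of -3.00 ± 1.04 (adjusted p = 0.416 with limma). Wild type array 3 thus lay among the ACKR2-deficient arrays, more than 4 log2 units under the other wild type arrays. Ltf, the iron-binding protein lactoferrin, followed Ngp over a smaller range, with 6.5, 6.41 and 6.37 on the ACKR2-deficient arrays and 8.09, 8.31 and 6.67 on the wild type arrays, a difference of -1.26 ± 0.39 (adjusted p = 0.399 with limma). Its groups did not overlap, although wild type array 3 lay close above ACKR2-deficient array 1. Camp, the precursor of the antimicrobial cathelicidin peptide, read 7.66, 7.62 and 7.72 on the ACKR2-deficient arrays and 7.55, 8.05 and 7.86 on the wild type arrays, a difference of -0.15 ± 0.15 (adjusted p = 0.818 with limma). Over all 12 arrays Camp stayed between 7.35 and 8.05. These values carry no detection call, so how far low values, those of the other genes on the ACKR2-deficient arrays included, lie above background is not known, and a fold against them holds only as measured.

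The 250 bases before the start of Ltf, Ngp and Camp are shown, from RefSeq promoter windows on GRCm38.p6. These 3 were chosen as specific granule genes that depend on Cebpe in mouse. All 3 genes lie on chromosome 9 but are not neighbours. Capitals mark matches to TTNNGNAA, a core of the C/EBP family motif, on either strand. The windows are chr9:111019042-111019291 (plus strand) for Ltf, chr9:109849457-109849706 (minus strand) for Camp and chr9:110419558-110419807 (plus strand) for Ngp.
Ltf: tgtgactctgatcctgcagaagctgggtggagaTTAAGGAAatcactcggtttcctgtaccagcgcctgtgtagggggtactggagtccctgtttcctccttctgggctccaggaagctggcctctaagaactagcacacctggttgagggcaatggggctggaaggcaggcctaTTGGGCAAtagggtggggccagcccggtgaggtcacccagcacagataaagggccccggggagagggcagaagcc
Ngp: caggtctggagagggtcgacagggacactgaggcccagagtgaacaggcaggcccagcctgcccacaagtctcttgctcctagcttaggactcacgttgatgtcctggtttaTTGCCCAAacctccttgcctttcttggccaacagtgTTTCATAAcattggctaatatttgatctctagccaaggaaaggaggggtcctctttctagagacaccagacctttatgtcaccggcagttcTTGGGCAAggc
Camp: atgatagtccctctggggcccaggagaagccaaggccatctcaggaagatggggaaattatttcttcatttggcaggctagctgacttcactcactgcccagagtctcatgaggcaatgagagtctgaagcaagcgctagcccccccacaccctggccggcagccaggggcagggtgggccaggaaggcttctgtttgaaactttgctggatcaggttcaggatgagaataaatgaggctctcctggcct

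Ltf held 2 matches, the nearer one from -75 to -68 counted from the gene's start, and Ngp held 3, the nearest from -11 to -4. The 8 letters TTGGGCAA occur in both, and once more in Ngp as their reverse complement TTGCCCAA. The Camp window held none, which says only that these letters are not in it. Among all 32851 windows, 36.8% held at least 1 match, and among the 9 member windows 5 did (Ltf, Ngp, Lcn2, S100a8 and S100a9). The windows of Mpo, Elane and Prtn3, which differed by -2.60, -2.17 and -1.92 at 10 weeks, held none either. GAGGAA, a core of the PU.1 motif, was in 6 of the 9 member windows and in 23.3% of all windows. The letters AGATAA, bound by factors of the erythroid and mast cell lines, were in 2 of the 9 and in 9.99% of all windows. The letters TGTGGT, a core of the Runx motif, were in 1 of the 9 and in 14% of all windows. Both strands were searched, and no match overlapped a match of another of these motifs in the member windows. These matches describe letters and are no evidence of binding.

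Mmp9, the gelatinase of the tertiary granule, which cleaves denatured collagen and type IV collagen, did not follow the other genes. It read 7.32, 7.37 and 7.19 on the ACKR2-deficient 10-week arrays and 7.03, 7.38 and 7.90 on the wild type 10-week arrays, a difference of -0.14 ± 0.21 (adjusted p = 0.906 with limma). The groups overlapped, and the array highest for Mmp9 was wild type array 3, the lowest wild type array for 8 of the other genes. Without wild type array 3 its difference was 0.09, so its sign rests on that array.

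S100a8 and S100a9 are adjacent on chromosome 3 and form calprotectin, a zinc- and calcium-binding dimer. S100a8 read 6.51, 6.60 and 5.96 on the ACKR2-deficient 10-week arrays and 9.65, 11.84 and 6.92 on the wild type 10-week arrays, a difference of -3.11 ± 1.06 (adjusted p = 0.405 with limma). S100a9 read 6.60, 6.61 and 6.58 on the ACKR2-deficient arrays and 9.59, 11.29 and 6.84 on the wild type arrays, a difference of -2.64 ± 0.95 (adjusted p = 0.423 with limma). Neither gene's groups overlapped, yet wild type array 3 was closer to the ACKR2-deficient arrays than to the other wild type arrays for both. On wild type array 2 both genes stood above wild type array 1 as well.

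The differences thus rested on different arrays. On ACKR2-deficient array 1, Mpo lay 2.5 and Lcn2 2.3 above the mean of ACKR2-deficient arrays 2 and 3, and Prtn3 0.90 above it, while the other 7 genes stood within 0.40 of it. Wild type array 3 lay below the mean of wild type arrays 1 and 2 by 4.24 for Ngp, 3.83 for S100a8, 3.6 for S100a9, 2.37 for Elane, 1.96 for Mpo, 1.53 for Ltf, 1.51 for Prtn3 and 0.94 for Lcn2. Without ACKR2-deficient array 1, limma called Mpo (-3.43, adjusted p = 0.029) and Lcn2 (-3.70, adjusted p = 0.00475) lower, beside 2.04% of all genes called lower. Over the 13 other settings tried, the adjusted p of Mpo ran from 0.000593 to 1 and that of Lcn2 from 0.000547 to 1, both lowest with array weights, whose estimation did not converge. Without wild type array 3, it called Ngp (-4.41, adjusted p = 0.00246) and Ltf (-1.77, adjusted p = 0.0255) lower, beside 0.0451% of all genes called lower. Over the same 13 settings the adjusted p of Ngp ran from 0.000731 to 1 and that of Ltf from 0.000621 to 1, again lowest with array weights. Each omission took out the array nearest to the other genotype for the genes it called, so these calls were favoured by the choice. Wild type array 2 was the highest of the 6 arrays for 9 of the 10 genes, and without it the median difference was -1.47.

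**Figure D2:**
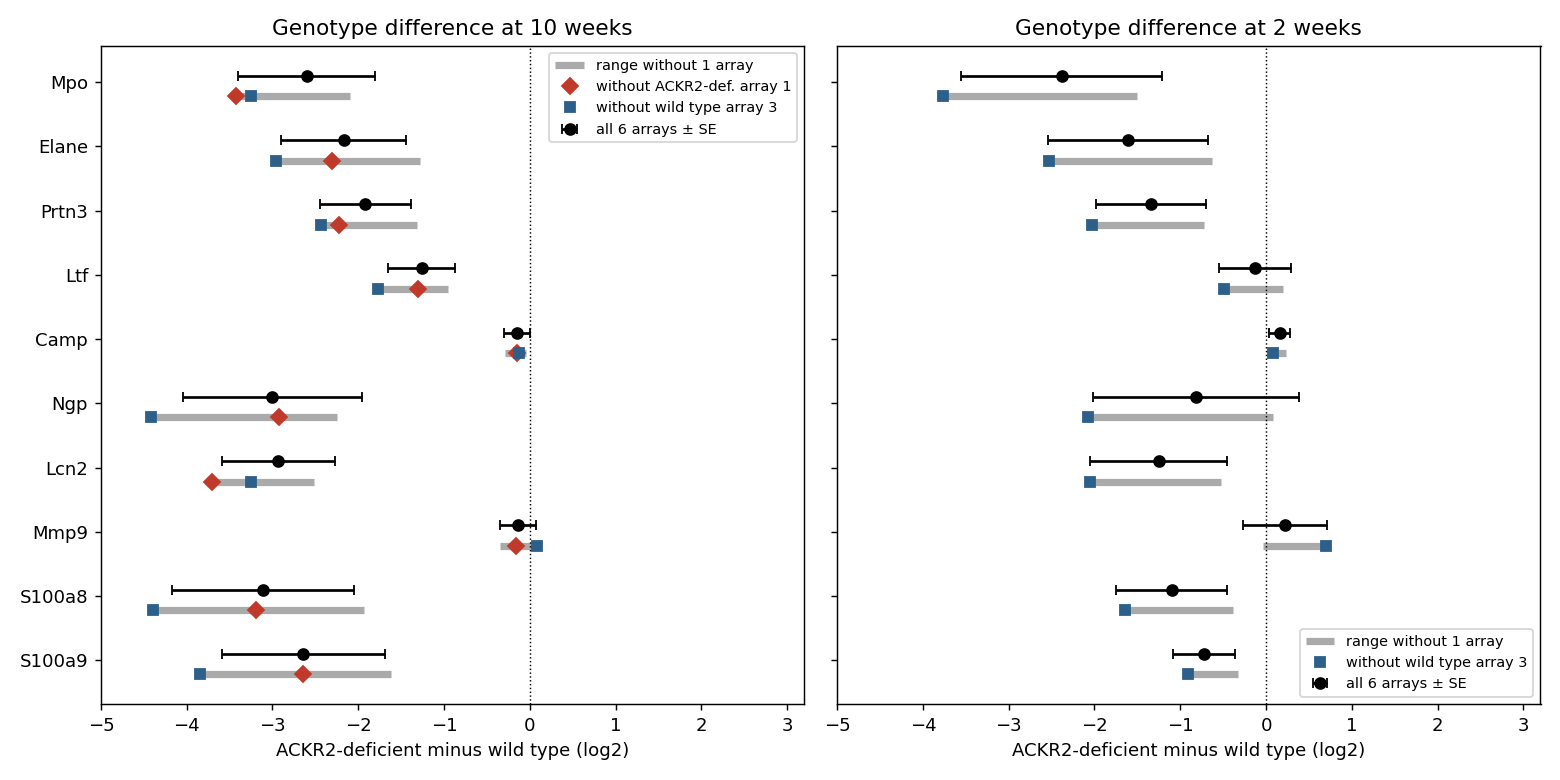
Difference of ACKR2-deficient minus wild type arrays (log2) for each gene at 10 weeks (left) and 2 weeks (right). Black points with bars are limma estimates over 6 arrays with their SE, grey bars span the estimates with 1 array left out in turn, and coloured symbols mark named omissions. At 10 weeks the estimate for Ngp is -3.00 over 6 arrays and -4.41 without wild type array 3, and that for Lcn2 is -2.93 and, without ACKR2-deficient array 1, -3.70.

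Other neutrophil granule genes, none of which passed the test at 10 weeks, followed the same arrays in part. Of 5 further primary granule genes 4 averaged below 0, with a median of -0.49. Ctsg, cathepsin G, which is also a mast cell protease, read 10.37, 6.58 and 6.17 on the ACKR2-deficient arrays and 12.18, 11.39 and 10.38 on the wild type arrays, a difference of -3.61 ± 1.05. As for Mpo and Lcn2, ACKR2-deficient array 1 stood far above the other ACKR2-deficient arrays. Ms4a3, a membrane protein of granulocyte precursors, read 7.04, 6.97 and 7.20 on the ACKR2-deficient arrays and 9.88, 9.63 and 7.18 on the wild type arrays, with wild type array 3 at the level of the ACKR2-deficient arrays as for Ngp. Ctsc, the peptidase that activates the granule serine proteases, differed by 0.17 ± 0.17 and Prss57, a serine protease of the same granules, by -0.49 ± 0.12. All 13 further specific and gelatinase granule genes measured, of 14 listed, averaged below 0, with a median of -1.70, and 3 of them lay lower without overlap. Over all genes 9648 of 19938 averaged below 0, and 5.98% lay lower without overlap. Pglyrp1, which binds bacterial peptidoglycan, differed by -2.54 ± 0.65 and Hp, haptoglobin, by -1.70 ± 0.54, both without overlap. Chil3, a chitinase-like protein that macrophages also make, read 11.69, 5.56 and 5.23 on the ACKR2-deficient arrays and 10.86, 12.61 and 11.05 on the wild type arrays. Mmp8, neutrophil collagenase, read 7.76, 6.14 and 5.72 on the ACKR2-deficient arrays and 7.66, 11.46 and 9.70 on the wild type arrays. Unlike Ngp and the S100 pair, Chil3 and Mmp8 were higher on wild type array 3 than on array 1. Of 4 stefins and related genes measured, of 7 listed, all averaged below 0 with a median of -0.58, and Stfa2, a cysteine protease inhibitor, differed by -1.24 ± 0.37.

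Genes for inhibitors and receptors of these proteins gave values on both sides of 0, and none passed the test. Of 5 inhibitor genes 4 averaged below 0 (median -0.23). Slpi, an inhibitor of elastase, read 9.13, 7.55 and 7.73 on the ACKR2-deficient 10-week arrays and 9.48, 9.59 and 9.57 on the wild type 10-week arrays, a difference of -1.41 ± 0.38 without overlap. Serpinb1a, which inhibits elastase, cathepsin G and proteinase 3, ran the other way. It read 12.83, 12.65 and 12.67 on the ACKR2-deficient arrays and 12.48, 12.14 and 12.43 on the wild type arrays. Its difference was 0.37 ± 0.14, also without overlap. Over all genes 5.98% lay lower and 8.61% higher without overlap. Timp1, an inhibitor of Mmp9, differed by -0.23 ± 0.23, and Timp2, a relative of it, by -1.39 ± 0.71. Among 5 receptor genes measured, of 6 listed, 3 averaged below 0 (median -0.26) and none had groups without overlap. Cd36, a scavenger receptor, differed by -1.87 ± 0.66 and Lrp1, an endocytic receptor, by -1.20 ± 0.71. Tlr4, a receptor for calprotectin, differed by 0.70 ± 0.31, and Slc22a17, a receptor for lipocalin 2, by -0.26 ± 0.20. Ager, another S100 protein receptor, differed by 0.07 ± 0.16.

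Of 9 transcription factor genes of granulocyte development 7 averaged below 0 (median -0.38), and none passed the test. Cebpe, which drives specific granule genes, read 7.17, 7.04 and 6.93 on the ACKR2-deficient 10-week arrays and 7.79, 7.70 and 7.51 on the wild type 10-week arrays, a difference of -0.62 ± 0.13 (adjusted p = 0.38 with limma). Cebpa, which commits progenitors to the granulocyte line, read 9.71, 6.80 and 6.74 on the ACKR2-deficient arrays and 10.00, 10.50 and 10.19 on the wild type arrays, a difference of -2.48 ± 0.73. Both had groups without overlap, as did Irf8 (-1.11 ± 0.30). Over all genes 5.98% lay lower and 8.61% higher without overlap. For Cebpa ACKR2-deficient array 1 lay near wild type, as for Mpo and Lcn2. Cebpb, Cebpd and Myb differed by -1.30 ± 0.39, -0.38 ± 0.16 and 0.56 ± 0.18, all with overlap. Gfi1, Spi1 and Runx1, further regulators of myeloid genes, differed by -0.23 ± 0.31, -0.21 ± 0.13 and 0.18 ± 0.18. Among 6 neutrophil surface genes measured, of 8 listed, 5 averaged below 0 (median -1.25). Of the 6, 2 lay lower and 1 higher without overlap. Csf3r, the receptor for granulocyte colony-stimulating factor, differed by -1.30 ± 0.38 without overlap. Ly6g, the surface antigen used to identify mouse neutrophils, read 10.16, 7.24 and 6.62 on the ACKR2-deficient arrays and 9.89, 9.45 and 11.04 on the wild type arrays. It was thus highest on wild type array 3, where Ngp and S100a8 were low, and high on ACKR2-deficient array 1, where both were at their group's level.

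Markers of other cells moved with part of these arrays, and their part in the differences was not tested. The 14 monocyte and macrophage markers measured, of 15 listed, averaged 9.47, 7.48 and 7.89 on the ACKR2-deficient 10-week arrays and 8.98, 10.16 and 9.56 on the wild type 10-week arrays, with 13 below 0. ACKR2-deficient array 1 thus lay within the wild type range. The 6 eosinophil markers measured, of 8 listed, averaged 7.13, 6.68 and 6.77 on the ACKR2-deficient arrays and 8.47, 8.18 and 7.28 on the wild type arrays, and Prg2, major basic protein, differed by -2.69 ± 0.54. The mean of the list was thus high on wild type arrays 1 and 2, with a median difference of -1.06, but its members did not all share this. Ccr3, the eotaxin receptor, differed by -0.49 ± 0.56 and was highest on ACKR2-deficient array 1, and Il5ra, the interleukin 5 receptor chain, differed by 0.09 ± 0.14. The 5 basophil markers averaged 10.46, 8.38 and 8.31 on the ACKR2-deficient arrays and 10.74, 10.89 and 10.65 on the wild type arrays, with a median difference of -0.30. Mcpt8 and Prss34, both basophil proteases, differed by -4.15 ± 1.14 and -3.68 ± 0.93, while Cd200r3, Il4 and Itga2 differed by -0.19 ± 0.25, -0.22 ± 0.14 and -0.30 ± 0.35. The 13 mast cell markers measured, of 14 listed, averaged 11.88, 11.21 and 11.14 on the ACKR2-deficient arrays and 11.88, 11.67 and 11.74 on the wild type arrays, with 7 above 0 and 6 below. This mean hides a split. Mcpt4, a mast cell protease, read 8.66, 7.29 and 7.30 on the ACKR2-deficient arrays and 12.66, 11.21 and 9.05 on the wild type arrays (-3.22 ± 0.84). It alone lay lower without overlap, and 5 of the 13 lay higher. Over all genes these shares were 5.98% and 8.61%. Hdc differed by -1.45 ± 0.55 and Ms4a2 by 0.37 ± 0.11. The 9 cell cycle genes measured, of 10 listed, averaged 9.87, 10.28 and 10.26 on the ACKR2-deficient arrays and 11.19, 10.45 and 9.69 on the wild type arrays. B cell markers (5 of 6 measured) averaged between 6.58 and 6.85 on the ACKR2-deficient arrays and between 6.51 and 6.99 on the wild type arrays. T and NK cell markers (8 of 9) averaged between 6.63 and 7 on the ACKR2-deficient arrays and between 6.95 and 7.22 on the wild type arrays. Erythroid markers (4 of 6) averaged between 7.56 and 7.64 on the ACKR2-deficient arrays and between 7.44 and 7.81 on the wild type arrays. Progenitor markers (all 5) averaged between 8.76 and 9.17 on the ACKR2-deficient arrays and between 9.16 and 9.18 on the wild type arrays. No marker is at 0 on this scale.

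**Figure D3:**
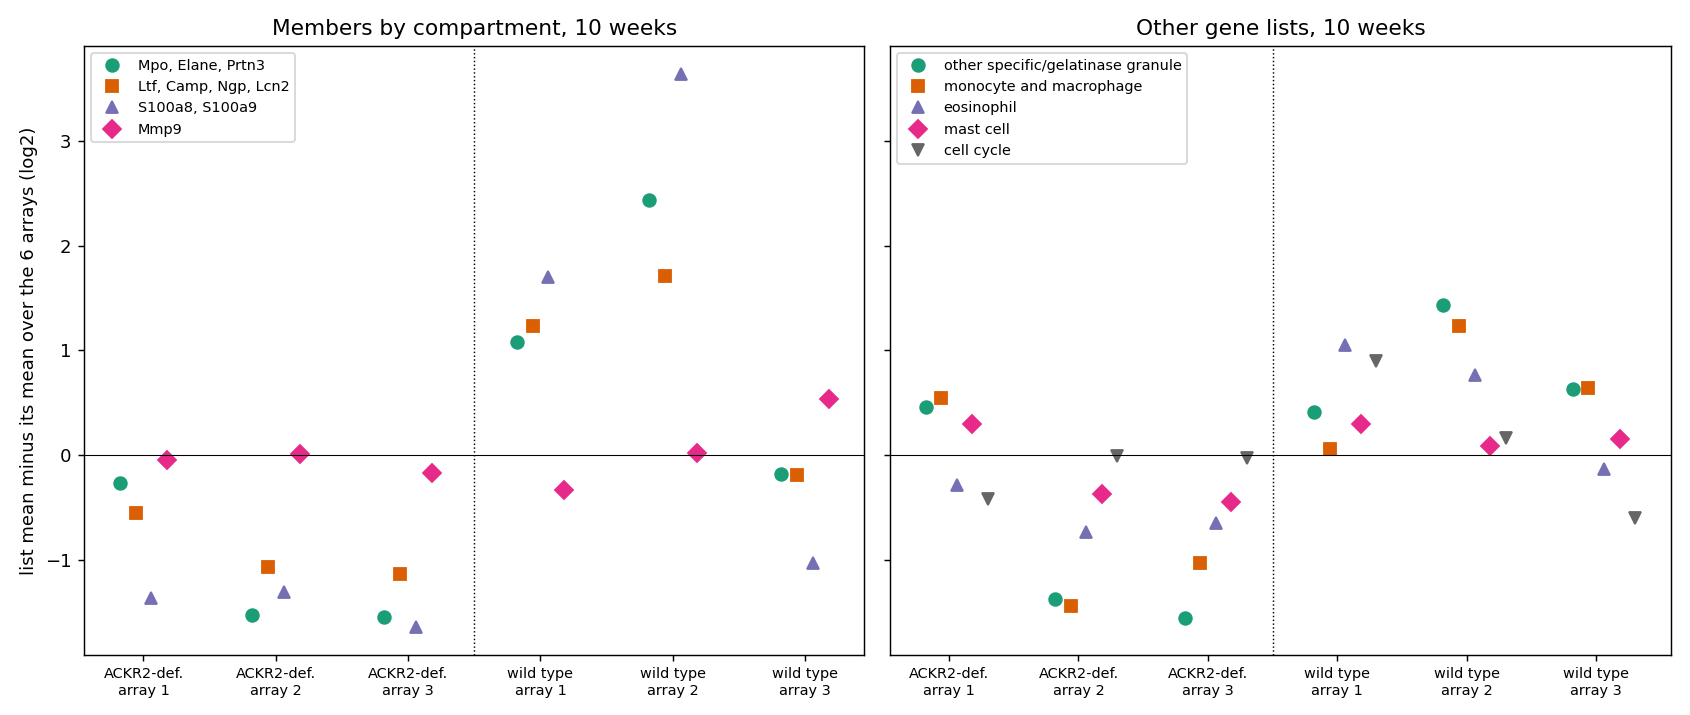
Mean of each gene list on the 6 arrays of 10 weeks, as the difference (log2) from that list's mean over the 6 arrays, for the 10 genes by compartment (left) and for other lists (right), with ACKR2-deficient arrays left of wild type. S100a8 and S100a9 are low on wild type array 3, while the monocyte and macrophage list and the other specific and gelatinase granule list stay above their means there and on ACKR2-deficient array 1.

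Genes whose pattern over the 6 arrays of 10 weeks was most like the mean of the 10 genes were sought among 2104 genes with a range of at least 1 log2 unit. The 10 nearest were Plaur, Trem3, Hp, Nrg1, Kynu, Clec5a, Dock4, Cxcl2, Morrbid and Rnd3, with Pearson r from 0.993 for Plaur to 0.973 for Rnd3 over 6 arrays. Plaur encodes the urokinase receptor, Trem3 and Clec5a are myeloid receptors, and Cxcl2 is a chemokine that attracts neutrophils. Cxcl2 read 6.30, 6.35 and 6.08 on the ACKR2-deficient arrays and 8.27, 9.55 and 7.30 on the wild type arrays, a difference of -2.13 ± 0.49 (adjusted p = 0.38 with limma). The mean of the 10 genes was itself lower on the ACKR2-deficient arrays, so this direction followed from how Cxcl2 was picked. Within the 10 genes, r with the mean of the other 9 over these arrays was highest for Prtn3 (0.984) and Elane (0.979), 0.492 for Camp and -0.146 for Mmp9. The arrays share culture, time and genotype, so these values describe likeness in 6 arrays only.

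At 2 weeks the arrays labelled ACKR2-deficient averaged lower for 8 of the 10 genes (median -0.96, against -0.02 over all genes), and none passed the test. Limma called 0 of 19938 genes, a background of 0% in either direction, and none of the 10 genes had an unadjusted p under 0.05, against 7.29% of all genes. Mpo read 7.36, 7.12 and 6.97 on the ACKR2-deficient 2-week arrays and 10.53, 11.30 and 6.79 on the wild type 2-week arrays, a difference of -2.38 ± 1.17 (adjusted p = 0.464 with limma). Elane read 7.35, 7.29 and 6.97 on the ACKR2-deficient arrays and 8.68, 10.79 and 6.98 on the wild type arrays. Prtn3 read 7.42, 7.35 and 7.25 on the ACKR2-deficient arrays and 8.82, 9.92 and 7.31 on the wild type arrays. For these genes wild type array 3, which lacked mast cell transcripts, lay at the level of the ACKR2-deficient arrays. Ngp read 8.70, 8.99 and 7 on the ACKR2-deficient arrays and 9.75, 10.87 and 6.55 on the wild type arrays. Lcn2 read 8.86, 9.02 and 7.80 on the ACKR2-deficient arrays and 9.96, 11.26 and 8.22 on the wild type arrays. S100a9 alone had groups without overlap, at 8.10, 8.09 and 7.68 on the ACKR2-deficient arrays and 8.25, 9.48 and 8.31 on the wild type arrays, as 8.6% of all genes were lower without overlap. None of the 10 was higher without overlap, against 4.97% of all genes. Mmp9 differed by 0.22 ± 0.49 and was highest on wild type array 3, at 8.60.

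Without wild type 2-week array 3, limma called Mpo (-3.76, adjusted p = 0.000691), Prtn3 (-2.03, adjusted p = 0.0105), Elane (-2.53, adjusted p = 0.0374) and Lcn2 (-2.05, adjusted p = 0.0459) lower, beside 14.7% of all genes called lower. Over all 13 other settings the adjusted p of these 4 genes reached 0.872 to 0.874 at its highest. That fit sets 2 wild type arrays with mast cell transcripts against 3 arrays without them, so genotype and the content of the arrays cannot be told apart. The interaction is the difference between genotype labels at 10 weeks minus that at 2 weeks. It was below 0 for all 10 genes (median -0.86, against 0.02 over all genes), from -2.17 ± 1.77 for Ngp to -0.22 ± 1.55 for Mpo. The 2-week arrays without mast cell transcripts enter it, so genotype and array content cannot be told apart there either. No interaction passed the test (0% of all genes), the lowest adjusted p of the 10 genes being 0.528 for Ltf. When wild type 2-week array 3 was left out, the interaction was called for 3138 genes (15.7% of all genes) and for 0 of the 10, with a lowest adjusted p among them of 0.216 for Mmp9 (limma). In that fit 7 of the 10 were below 0 (median -0.81), and Mpo was at 1.16, Elane at 0.36 and Prtn3 at 0.11.

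Between 10 and 2 weeks on arrays labelled ACKR2-deficient, 3 of the 10 genes fell at 10 weeks, and 10.1% of all genes fell. S100a9 differed by -1.36 ± 0.13 (limma adjusted p = 0.000762), S100a8 by -1.32 ± 0.25 (limma adjusted p = 0.012) and Ngp by -1.92 ± 0.51 (limma adjusted p = 0.0396). S100a9 averaged 6.60 ± 0.02 at 10 weeks and 7.96 ± 0.24 at 2 weeks (SD, n = 3 each), and for all 3 genes the groups did not overlap, as for 17.7% of all genes in that direction. At an unadjusted p under 0.05 the same 3 genes stood, against 37.3% of all genes. None of the 10 genes rose, against 15% of all genes. Prtn3 alone was higher at 10 weeks without overlap, by 0.43 ± 0.25, as 26.7% of all genes were. Ltf averaged 6.43 ± 0.06 at 10 weeks and 7.09 ± 0.58 at 2 weeks, and Lcn2 7.67 ± 1.33 at 10 weeks and 8.56 ± 0.66 at 2 weeks (SD, n = 3 each), and neither passed. Elane averaged 7.20 at both times. All 3 calls were lost when the spread was estimated from all 12 arrays, where their adjusted p lay between 0.325 and 0.443. The call for Ngp was also lost without any 1 of the arrays except ACKR2-deficient 2-week array 3, and that for S100a8 without ACKR2-deficient 2-week array 2 (adjusted p = 0.0507). The 2-week arrays here lacked mast cell transcripts and carried lymphocyte markers, so time cannot be told apart from that difference.

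Between 10 and 2 weeks on wild type arrays, 9 of the 10 genes averaged higher at 10 weeks (median 0.55, against 0.03 over all genes), and none passed the test. Limma called 0% of all genes, and none of the 10 genes had an unadjusted p under 0.05, against 2.89% of all genes. All 10 genes overlapped between the times, where 5.29% of all genes were higher and 3.45% lower at 10 weeks without overlap. Several of them changed direction without wild type 2-week array 3: -0.54 for Mpo, -0.37 for Elane, -1.00 for Ngp, -0.01 for Lcn2 and 0.28 for Mmp9. That fit kept wild type 10-week array 3, the lowest wild type 10-week array for Mpo, Elane, Ngp and Lcn2. Their sign thus did not rest on the 2-week array alone. On wild type arrays 1 and 2 the 10-week level of Mpo was 0.14 and 0.09 above the 2-week level of the array with the same number. That of Lcn2 was 0.42 and 0.19 above it. Elane lay 0.5 and 0.35 above it, and Ngp 0.9 and -0.07 from it. S100a8 lay 1.23 and 1.64 above it, and S100a9 1.34 and 1.81. Array 2 was above array 1 at both times for each of these genes. On array 3, which lacked mast cell transcripts at 2 weeks, Mpo lay 2.28 and Lcn2 1.75 above the 2-week level, and S100a8 -0.79 and S100a9 -1.47 from it. The 2 arrays numbered 3 differ in content, so these steps are not changes within 1 culture.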

How the data were processed

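The deposited values are log2 signals of 35399 probe sets on 12 single-colour arrays. Per the submitters' processing notes, the authors used Partek 6.5 and RMA, a method that subtracts background and gives all arrays 1 distribution. A range of 2.66 to 14.91, with array medians of 7.76 to 7.9, shows the scale. No scanner file was used here, so detection, slide and scan batches were not examined, and the number of arrays limits the precision. The probe sets' genome build is not given in the sources used here. Of the probe sets, 21789 had 1 gene symbol, 1621 had several and 11989 were unnamed here. The probe set with the highest mean was kept per gene, which left 19938 genes.

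Each comparison was fitted on its own 2 groups with limma 3.58.1 in R 4.3.3 (4 residual degrees of freedom), the interaction on all 12 arrays, with Benjamini-Hochberg adjustment over all genes and a threshold of 0.05. The fit was tried on simulated data with independent noise and no array standing apart. That trial says nothing about how reliable the calls here are. Groups come from the sample titles. The genes and lists were chosen with earlier results of these data known. Named genes are the 10 genes, Ackr2, members of the granule, inhibitor, receptor and regulator lists, the 10 most alike genes, and up to 4 genes with the lowest p of each cell type list. Fcer1a, Xist, Kdm5d, Eif2s3y, Ccr3, Il5ra and Cd200r3 were singled out after their values were seen. Same-numbered wild type arrays of 10 and 2 weeks were looked at as possible pairs. The deviations of the 3 same-numbered pairs from their group means correlated at 0.166 to 0.359. These 3 values are not independent, because deviations within a group cancel out. The arrays numbered 3 do not read as 1 culture: Xist was 5.77 at 2 weeks and 13.11 at 10 weeks, and Eif2s3y 10.9 and 4.53. The other comparisons had no same-numbered pair above 0.062. Proteins were not used here.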

Additional observations from a re-analysis of the deposited data

How the results depend on the processing

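With the replicate number as a block (pairing), 0 genes were called for either genotype comparison, for wild type time and for the interaction, as without it. For time on ACKR2-deficient arrays the block gave 4019 genes (20.2%), 3 of the 10 among them, against 5003 (25.1%) and 3 without it. The block changed no call of the 10 genes. The estimation of array weights did not converge for 3 of the 5 comparisons, and gave wild type 10-week array 2 a weight of 36.7 at 10 weeks, 157 in wild type time and 1.4e-06 in the interaction, so those 3 say nothing about stability. With weights limma called 9498 genes (47.6%) at 10 weeks, with 9 of the 10 (median -4.05), where 0 were called without weights. At 2 weeks it called 7573 (38%), against 0, with 6 of the 10, of which 5 were lower and Mmp9 higher (0.91). For ACKR2-deficient time it called 8714 (43.7%), against 5003, with 6 of the 10 (Camp -0.06). For wild type time it called 4529 (22.7%), against 0, with 3 of the 10 (Mmp9 0.18). For the interaction it called 4136 (20.7%), against 0, with 1 of the 10 (median 0.03). The weighted interaction was 1.39 for Mpo, 1.55 for Elane, 0.74 for Prtn3, 0.18 for Ngp and 0.23 for S100a8. Median centring gave Elane 0.10 for ACKR2-deficient time and split its calls into 4501 higher and 1690 lower, against 2983 and 2020. With all 12 arrays in the fit 0 of the 10 genes were called there, and 3 of the 10 most alike genes were among the 10 over 12 arrays.

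With each array left out in turn, calls at 10 weeks ran from 0 to 506 genes (0 to 2 of the 10), the median from -3.10 to -1.47 and Mmp9 from -0.35 to 0.09. At 2 weeks calls ran from 0 to 4891 (0 to 4 of the 10), the median from -1.83 to -0.36, Ltf from -0.49 to 0.20, Ngp from -2.08 to 0.08 and Mmp9 from -0.04 to 0.70. For ACKR2-deficient time they ran from 3242 to 6006 (1 to 5 of the 10), Mpo from -0.21 to 1.06, Elane from -0.14 to 0.08 and Camp from -0.07 to 0.04. For wild type time Mpo ran from -0.54 to 1.72, Elane from -0.37 to 1.54, Ngp from -1.00 to 1.67, Lcn2 from -0.01 to 1.51, Mmp9 from -0.46 to 0.28, S100a8 from -0.49 to 1.97 and S100a9 from -0.47 to 1.76. For the interaction calls ran from 0 to 3138 (highest without wild type 2-week array 3), Mpo from -1.10 to 1.16, Elane from -1.54 to 0.36 and Prtn3 from -1.20 to 0.11. The cause of these shifts was not tested.

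The number of arrays limits the precision, and these values hold no detection call.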
